A study of Mus musculus with 221 samples.

Results

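The genes described here are the ligands and receptors of the axon guidance families: semaphorins of classes 3 to 7, plexins and neuropilins, ephrins and Eph receptors, Slits and Robos, and netrins with their receptors Dcc and Unc5. They were chosen by gene symbol, with the further condition that a gene had to be detected in at least 10 of 221 cells. Of 23244 features in the deposited table, 71 symbols matched and 48 were kept. The cells were single cells of medial neocortex, microdissected from C57BL/6J embryos at E18.5 and captured on the Fluidigm C1 platform. No gene was altered and no treatment was given. The 2 independent preparations, called pool 1 and pool 2 (99 cells), each combined 8 neocortices, so values of single embryos cannot be separated. The labels give the sex as female, whereas 99 of the 221 cells had at least 1 of 4 Y-linked genes above the detection limit. Each class below held cells of both pools.

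Growing axons and migrating neurons read guidance cues through these families. Secreted class 3 semaphorins bind neuropilins, which signal through class A plexins, while most other semaphorins bind plexins directly. Ephrins, anchored to the membrane by a lipid (ephrin-A) or crossing it (ephrin-B), bind Eph receptor tyrosine kinases on neighbouring cells. Slits repel axons through Robo receptors, and netrins attract them through Dcc or repel them through Unc5 receptors. In the late embryonic cortex, radial glia are the stem cells, intermediate progenitors divide to give excitatory neurons, and interneurons arrive by migration from the ventral forebrain.

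Values are TPM, a level scaled by transcript length and by the total of the cell. In each cell every feature without signal shares the same lowest value, here called the floor, which was 1.33 to 3.0 TPM with a median of 1.83. A gene is called detected in a cell where it lies above that floor, and a class in which a gene is not detected therefore has a mean at the floor and not at 0. Cells had 2146 to 6727 genes above the floor, with a median of 4035. Read numbers are not part of the table, so the depth behind a value is unknown.

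Cells were clustered on 96 cell type markers, none of which was a guidance gene, and the clusters were named from those markers. This gave 19 radial glia-like cells (9 in pool 1 and 10 in pool 2), 17 intermediate progenitor-like cells (9 and 8), 158 excitatory neuron-like cells (89 and 69) and 26 interneuron-like cells (15 and 11), with 1 cell left unnamed. Of the 19 radial glia-like cells, 11 formed a cluster led by cell cycle genes, and so did 5 of the 17 intermediate progenitor-like cells. A level of at least 100 TPM of Neurod6, a transcription factor that excitatory neurons express, was reached by 155 of 158 cells of the excitatory class, by 16 of 17 intermediate progenitor-like cells, by 12 of 26 interneuron-like cells and by 10 of 19 cells of the radial glia-like class. The classes therefore overlapped in this transcript, with medians of 1297 TPM in intermediate progenitor-like and 1818 TPM in excitatory neuron-like cells. The 13 excitatory markers were above the floor in 54.3% of marker and cell combinations in the intermediate progenitor-like class. In the excitatory class it was 57.9%, and in the radial glia-like class 33.2%. Intermediate progenitor markers were above it in 70.6%, 31.9% and 21.1% in the same order. Markers of oligodendrocyte precursors were above the floor in 23.2% of marker and cell combinations in the radial glia-like class, against 2.66% in the excitatory class. Astrocyte markers were above it in 40.8% and 3.01%. The 1 endothelial and both meningeal markers used were at the floor in every radial glia-like cell. Blood markers summed to 0 to 9795 TPM per radial glia-like cell and to 0 to 8011 TPM per excitatory neuron-like cell, with a median of 0 in both. The part of these transcripts in the results below was not tested.

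The families were detected unevenly. All 8 ephrins were kept, as were 15 of 20 semaphorins, 9 of 11 plexins and neuropilins, 7 of 14 Eph receptors, 6 of 9 netrins and netrin receptors, and 2 of 7 Slits and Robos. One further kept symbol, Unc50, matched the Unc5 pattern by its letters, although its product is a membrane trafficking protein and not a netrin receptor. At the limit of the rule, Efna5 and Ntn3 were detected in 10 cells each and were kept, whereas Epha6 and Sema4a were detected in 9 cells each and were not. The 23 symbols left out included 11 at the floor in every cell, among them Ntn1 (netrin-1), Plxnd1, Robo3 and Robo4.

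The 3 Slit ligands were nearly undetected while their receptors were common. Slit1 was above the floor in 5 cells, Slit2 in 6 and Slit3 in 6. Robo1 was detected in 94 cells (42.5%) and Robo2 in 53.8% of cells. The same held for netrin-1 and its receptor: Ntn1 was at the floor in every cell and Dcc was detected in 91. Of the Slit2 cells 4 were excitatory neuron-like and 2 radial glia-like, with a highest value of 53.3 TPM. At the unknown depth of these libraries, expression below the floor cannot be seen.

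The 47 guidance genes other than Unc50 were counted in each cell. The median above the floor was 10 in radial glia-like cells (4 to 17), with intermediate progenitor-like cells at 14 (6 to 21), excitatory neuron-like cells at 14 (4 to 24) and interneuron-like cells at 7 (4 to 19). The medians of all genes above the floor in the same order were 4742, 4635, 4033 and 3367. Per 1000 genes above the floor, the median was 2.04 guidance genes in radial glia-like cells, 2.61 in intermediate progenitor-like cells, 3.39 in excitatory neuron-like cells and 2.37 in interneuron-like cells. By pool, the excitatory values were 3.41 and 3.29, above both values of each other class, among which the highest were 2.71 in radial glia-like cells of pool 1 and 2.69 in intermediate progenitor-like cells of pool 2. A gene could pass the filter of 10 cells through the excitatory class alone, which held 158 of the 221 cells. The part of the filter in these values was not tested, and no test was made of this count.

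By mean log2(TPM + 1), 20 of the 48 genes were highest in excitatory neuron-like cells, 12 in interneuron-like cells, 9 in intermediate progenitor-like cells and 7 in radial glia-like cells. Both Robos and 5 of 8 ephrins were highest in the excitatory class, and 6 of 15 semaphorins in the interneuron class. A gene at the floor had a mean of 1.58 in interneuron-like, 1.51 in excitatory neuron-like, 1.45 in intermediate progenitor-like and 1.41 in radial glia-like cells. The order of rarely detected genes can thus follow the floor of the class. Sema7a counted as highest in the interneuron class with detection in 1 of 26 cells, against 14 of 158 excitatory neuron-like cells. Nrp2 did so with 2 of 26 cells, against 18 of 158. The same split over all genes was not made, and the filter lets a gene pass through the largest class alone. These counts therefore cannot be read as a trait of the guidance families. This order is a description, and the tests of the differences follow.

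**Figure D1:**
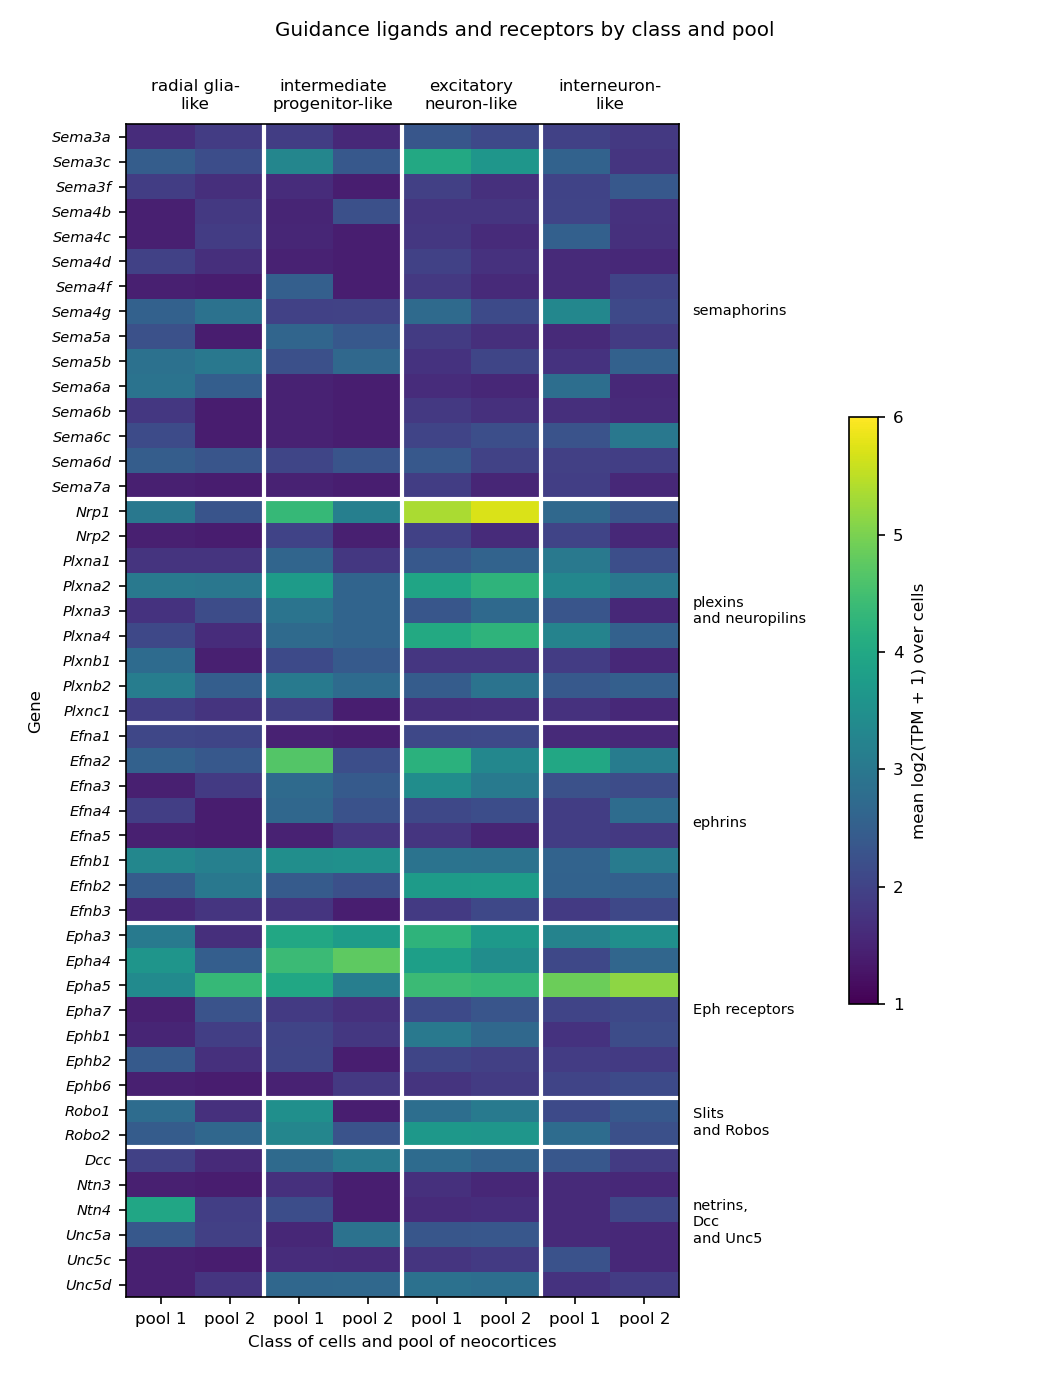
Mean log2(TPM + 1) of 47 guidance genes (all kept genes but Unc50), by family, in the 4 classes and 2 pools. Nrp1 in excitatory neuron-like cells is the brightest row (5.37 in pool 1 and 5.72 in pool 2), Epha5 is bright in all 4 classes, and many genes sit near 1.5, the value of a gene at the floor.

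Differences between classes were tested with limma on the mean log2(TPM + 1) of each class in each pool, with all 10679 genes that passed the filter and were not markers. A gene was called if its Benjamini-Hochberg adjusted p was under 0.05 and its log2 difference was 1 or more in either direction. There were 2 pools per class, so the p-values rest on the spread between 2 preparations. That spread was estimated over all 4 classes together and drawn toward that of other genes. It is not specific to the 2 classes compared. Errors are standard errors of the fit.

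The comparisons ask which guidance genes mark progenitors, excitatory neurons and interneurons. The first set radial glia-like cells against excitatory neuron-like cells. Nrp1, Plxna4 and Efna3 were lower in radial glia-like cells, and no guidance gene was called higher. The 3 calls make 6.25% of the 48 genes. Over all genes tested, 3.90% were called, 3.02% higher and 0.880% lower. The median difference was -0.33 over the 48 genes and -0.02 over all genes, and 36 of the 48 were negative. At an unadjusted p below 0.05 in limma the count was 13 of 48 (27.1%), against 1926 of the 10679 genes.

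Nrp1 encodes neuropilin-1, the ligand-binding receptor for Sema3a. It was above the floor in 133 of 158 excitatory neuron-like cells (84.2%, exact 95% interval 77.5 to 89.5%), where the lowest value was at the floor, the median 77.9 TPM and the highest 653.5 TPM. In radial glia-like cells it was detected in 6 of 19 (31.6%, 12.6 to 56.5%), with a median at the floor and a highest value of 119.8 TPM. The excitatory means were 107.9 TPM in pool 1 and 101.6 TPM in pool 2. The radial glia-like means were 26.4 and 11.3 TPM, so the pools of the classes did not overlap. The log2 difference was -2.90 ± 0.59 (limma, adjusted p = 0.0236).

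Plxna4 encodes plexin-A4, a signalling partner of neuropilins and a receptor of class 6 semaphorins. It was detected in 65 of 89 and 53 of 69 excitatory neuron-like cells in pools 1 and 2 (74.7% in all, 67.2 to 81.3%), with a median of 23.02 TPM and a highest value of 187.9 TPM. It was detected in 4 of 19 radial glia-like cells (21.1%, 6.05 to 45.6%), with a highest value of 51.7 TPM. Pool means were 33.8 and 34.4 TPM in the excitatory class and 7.75 and 2.85 TPM in the radial glia-like class. The log2 difference was -2.28 ± 0.47 (limma, adjusted p = 0.0249). Plxna4 lies at chr6:32144268-32588192 on the minus strand of GRCm38 and overlaps 3 antisense genes, and no label says that the libraries kept strand.

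Efna3, a GPI-anchored ephrin-A ligand, was detected in 64 of 158 excitatory neuron-like cells (40.5%, 32.8 to 48.6%) and in 1 of 19 radial glia-like cells (5.26%, 0.133 to 26.03%). The highest excitatory value was 250 TPM, and the single radial glia-like cell had 56.9 TPM. Pool means were 39.1 and 32.9 TPM against 1.70 (the floor) and 7.16 TPM. The log2 difference was -1.61 ± 0.39 (limma, adjusted p = 0.0475). With the pool as a block, Efna3 was no longer called (adjusted p = 0.0565).

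When each of the 4 class and pool profiles was left out in turn, 1 class had a single profile, which was assumed to vary like the other classes. Over those 4 fits the log2 difference was -2.50 to -2.06 for Plxna4 (limma adjusted p 0.0526 to 0.293) and -1.81 to -1.41 for Efna3 (0.0791 to 0.444), so neither stayed called. The differences of Nrp1 were -3.24 to -2.56. Its limma adjusted p was 0.0496, still a call, without the radial glia-like cells of pool 1, 0.102 without those of pool 2, 0.199 without the excitatory neuron-like cells of pool 1 and 0.28 without those of pool 2. Over all genes the same fits called 1 gene without either excitatory profile, and 320 and 285 without the radial glia-like profile of pool 1 and of pool 2, against 417 with every profile. Classes cut by marker gates in place of clusters gave differences of -1.20 for Nrp1, -1.11 for Plxna4 and -0.70 for Efna3, and none of the 3 was called, with 45 calls over all genes. Without the radial glia-like cells that had Neurod6 at 100 TPM or more, the differences were -4.17, -2.73 and -1.87, and Epha3 and Ephb1 were called as well, with 511 calls over all genes. That fit had 3 radial glia-like cells in pool 1 and 6 in pool 2.

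**Figure D2:**
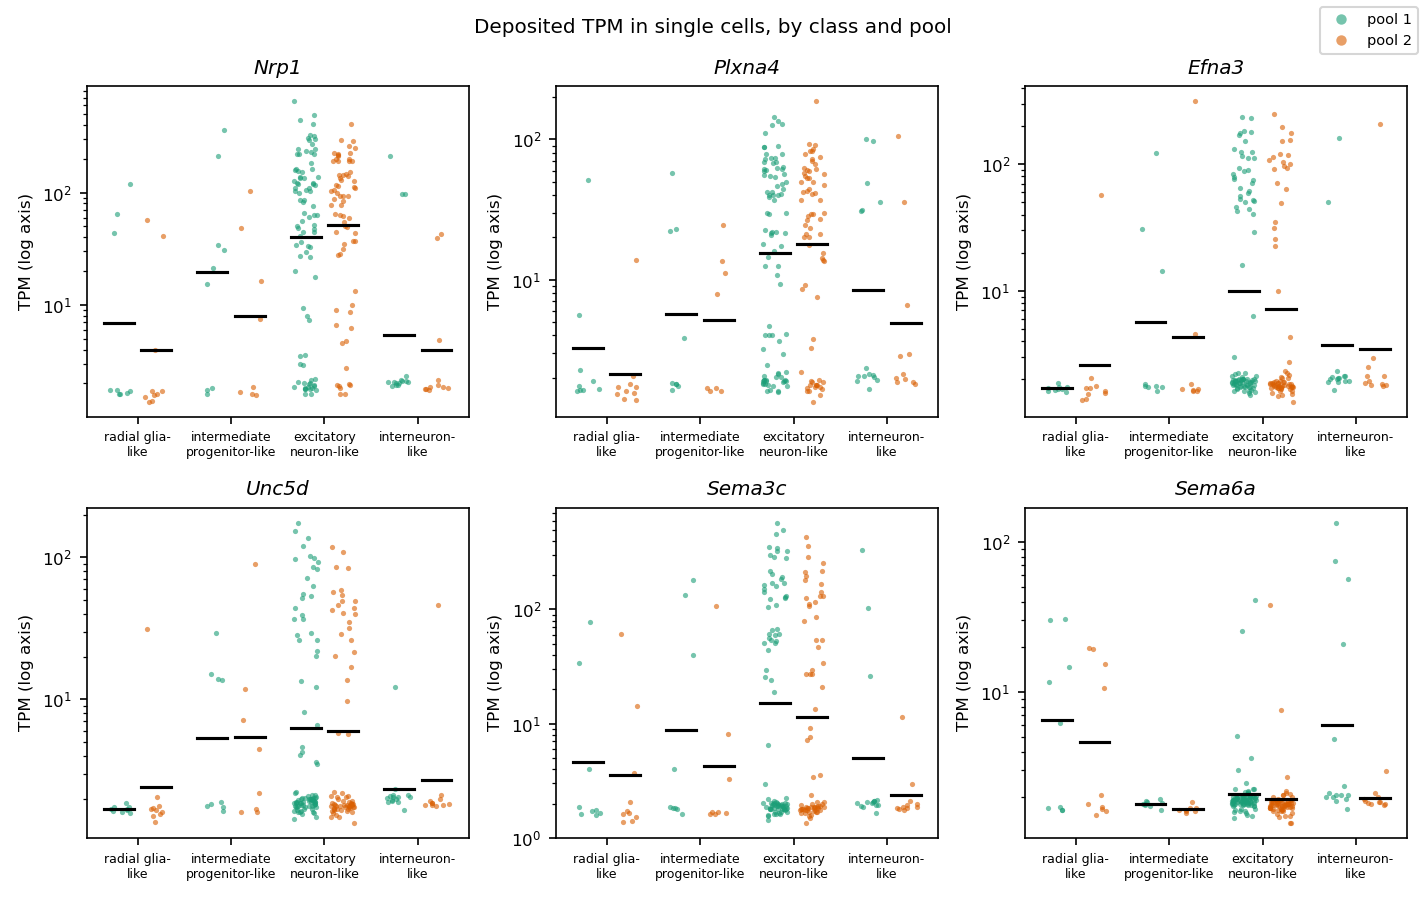
Deposited TPM of 6 guidance genes in single cells (log axis), by class; green points are pool 1 and orange points pool 2, and a black bar marks the back-transformed mean of log2(TPM + 1) in each class and pool. Cells without detection lie in the band at the floor (1.33 to 3.0 TPM). For Nrp1, 133 of 158 excitatory neuron-like cells lie above the floor, against 6 of 19 radial glia-like and 6 of 26 interneuron-like cells.

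The bases upstream of 2 of these 3 genes are shown because they were called together, and because the E-box CAGATG is a binding sequence of the proneural factors that act along the path from progenitor to neuron. Both stretches come from RefSeq (GRCm38.p6), 5′ to 3′ on the gene's strand, and leave out exons annotated by GENCODE. The Nrp1 stretch precedes the RefSeq start but lies inside the GENCODE gene (chr8:128358604-128503363), whose earliest transcript starts farther upstream. Efna3 has a second RefSeq start within the gene, whose stretch is not printed. Capitals mark CAGATG or its reverse complement CATCTG.
Efna3, chr3:89322966-89323189, minus strand: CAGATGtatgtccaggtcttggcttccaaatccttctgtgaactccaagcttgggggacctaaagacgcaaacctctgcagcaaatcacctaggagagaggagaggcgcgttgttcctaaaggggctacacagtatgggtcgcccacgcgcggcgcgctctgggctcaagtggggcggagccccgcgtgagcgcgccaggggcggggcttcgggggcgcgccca
Nrp1, chr8:128358823-128359072, plus strand: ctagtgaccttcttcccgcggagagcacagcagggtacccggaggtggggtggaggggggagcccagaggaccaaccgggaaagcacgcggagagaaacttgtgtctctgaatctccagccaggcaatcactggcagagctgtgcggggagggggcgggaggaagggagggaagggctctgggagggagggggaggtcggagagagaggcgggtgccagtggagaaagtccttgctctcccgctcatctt

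The Efna3 stretch holds 1 match, at its upstream end, and the Nrp1 stretch holds none. The window before the second Efna3 start (chr3:89321769-89322018) holds none either. In the 250 bases before each RefSeq start, CAGATG on either strand occurred in 14.4% of 32851 promoters. Of the 48 genes, 41 had 54 such windows, and 2 of the 54 held a match (those of Efna3 and Sema3c). A match is a description of the letters and not a binding site. Efna3 (chr3:89313899-89322965, overlapping Gm15998) lies between 2 other ephrin-A genes on the minus strand of chromosome 3, Efna1 at chr3:89271733-89281142 and Efna4 at chr3:89333390-89338028. Its neighbours were detected less widely in the excitatory class, Efna1 in 16 of 158 cells and Efna4 in 24 of 158.

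Other receptors and ligands with lower means in the radial glia-like class than in the excitatory class did not pass the adjusted threshold. Unc5d, a repulsive netrin receptor family member, was detected in 1 of 19 against 60 of 158 cells (log2 difference -1.24 ± 0.34, limma adjusted p = 0.0743). Ephb1, an ephrin-B receptor, was detected in 3 of 19 against 75 of 158 cells (-1.13 ± 0.34, limma adjusted p = 0.0991). Sema3c, a secreted semaphorin, was detected in 6 of 19 against 78 of 158 cells (-1.50 ± 0.51, limma adjusted p = 0.145). Epha3 was detected in 5 of 19 against 84 of 158 cells (-1.61 ± 0.58, limma adjusted p = 0.167). For each of these genes both pool means of the excitatory class lay above both of the radial glia-like class on the log2 scale. The same held for Sema7a, detected in 0 of 19 and 14 of 158 cells. How many of all genes had such a gap was not counted, so it is no support for a difference.

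Sema6a and Sema5b, both membrane-bound semaphorins, were detected more often in radial glia-like cells, also without passing the test. Sema6a, a ligand of class A plexins, was detected in 9 of 19 radial glia-like cells (47.4%, 24.5 to 71.1%). It was detected in 8 of 158 cells of the excitatory class, in 5 of 26 interneuron-like cells and in none of the 17 intermediate progenitor-like cells. Its radial glia-like means were 11.1 and 7.55 TPM, against 2.67 and 2.39 TPM in the excitatory class (log2 difference 1.11 ± 0.39, limma adjusted p = 0.159). Of the 9 cells, 7 belonged to the cluster led by cell cycle genes. Sema5b was also detected in 9 of 19 radial glia-like cells, with means of 16.9 and 18.2 TPM, against 17 of 158 excitatory neuron-like cells with means of 4.01 and 11.2 TPM (1.04 ± 0.42, limma adjusted p = 0.217).

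Ntn4, a netrin found in basement membranes, was detected in 14 cells, of which 7 were radial glia-like. Those 7 of 19 (36.8%, 16.3 to 61.6%) compare with 5 of 158 excitatory neuron-like cells (3.16%, 1.03 to 7.23%). The radial glia-like means differed between the pools, at 41.97 TPM in pool 1 and 4.55 TPM in pool 2, and the log2 difference from excitatory neuron-like cells was 1.31 ± 0.56 (limma, adjusted p = 0.247). The difference within pool 1 was 2.34 and that within pool 2 was 0.28. Unc50 had the largest difference that was not called (1.82 ± 0.75, limma adjusted p = 0.228).

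Epha5, a receptor of ephrin-A ligands, was the guidance gene detected in the most cells. Its values exceeded the floor in 17 of 19, 15 of 17, 143 of 158 and 25 of 26 cells in the order radial glia-like, intermediate progenitor-like, excitatory neuron-like and interneuron-like, and so in 201 of all 221 cells. Its means were 18.1 and 28.1 TPM, 23.3 and 14.9 TPM, 35.8 and 36.4 TPM, and 40.6 and 75.4 TPM in the 2 pools of these classes. The levels of the first and second classes overlapped between pools, and none of the 5 comparisons called Epha5. Efnb1, an ephrin-B ligand, was the ephrin detected in most radial glia-like cells, at 10 of 19, with 25.5 and 27.4 TPM.

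**Figure D3:**
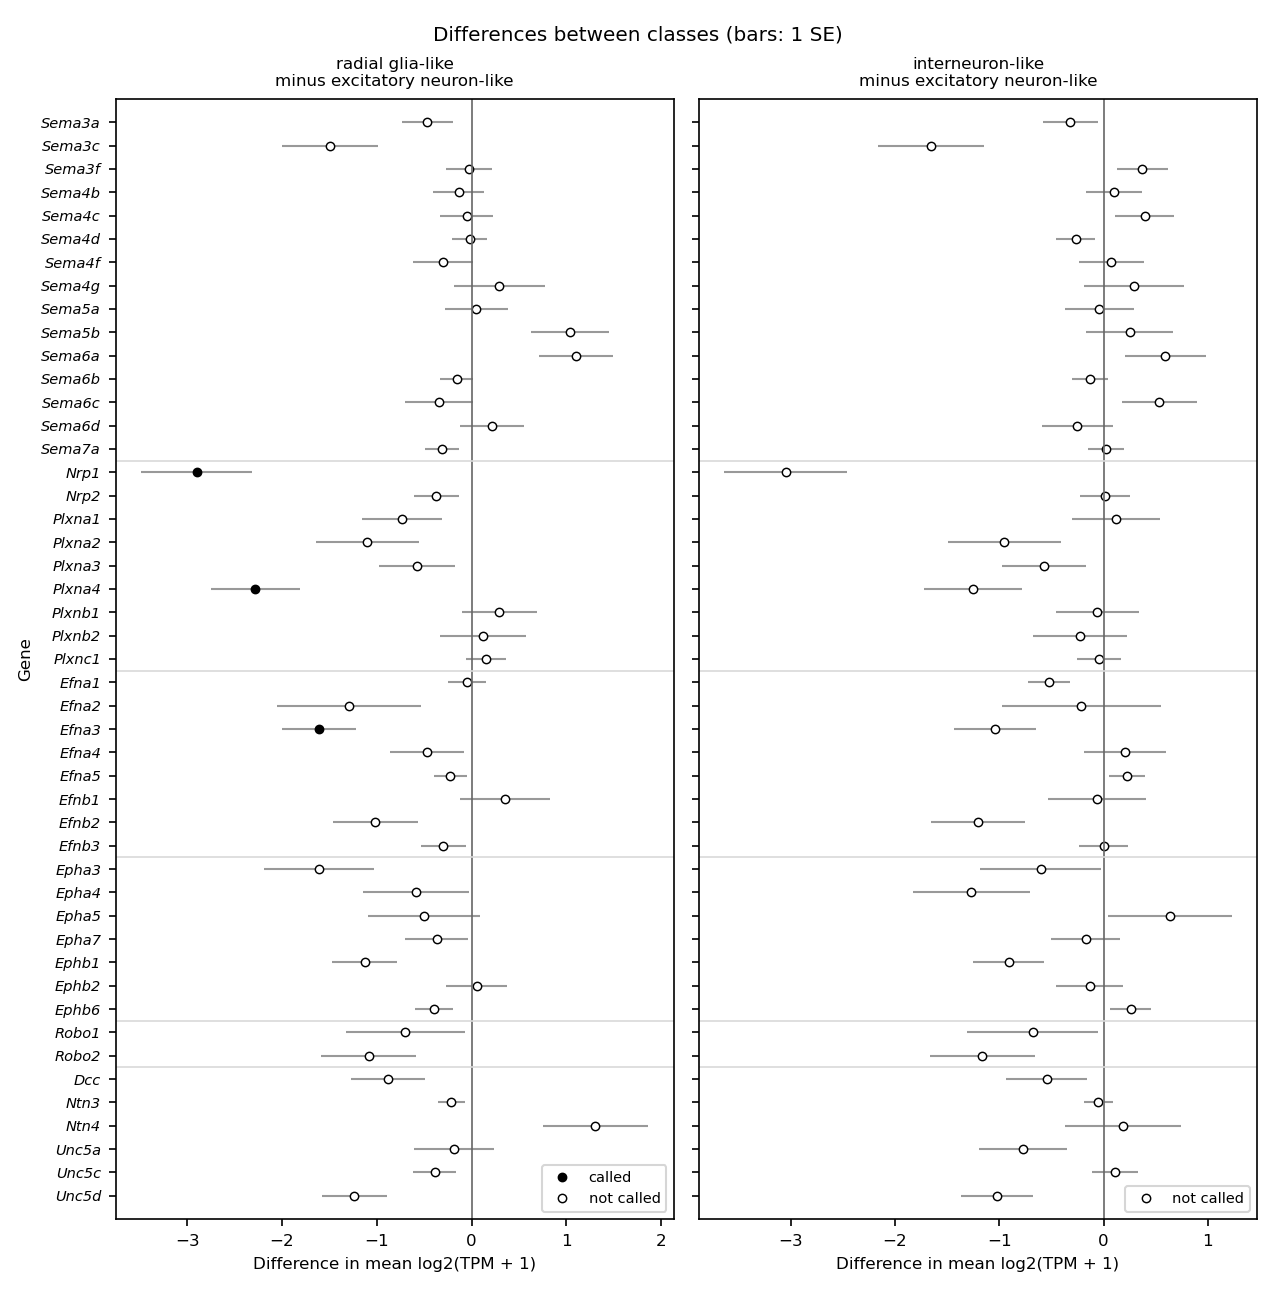
Log2 difference of each of 47 guidance genes of radial glia-like from excitatory neuron-like cells (left) and of interneuron-like from excitatory neuron-like cells (right), by family; bars are 1 SE and filled points are called. Nrp1, Plxna4 and Efna3 are filled on the left, and no point is filled on the right, where Nrp1 lies farthest from 0 at -3.05.

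The next comparison set the 2 neuronal classes against each other, interneuron-like against excitatory neuron-like cells. None of the 48 genes was called, while 0.318% of all genes were. At an unadjusted p below 0.05 in limma, 10 of 48 (20.8%) were lower and 0 were higher, against 6.60% of all genes in either direction. Nrp1 came nearest the threshold: it was detected in 6 of 26 interneuron-like cells (23.1%, 8.97 to 43.6%), with means of 28.8 and 9.22 TPM, and the log2 difference was -3.05 ± 0.59 (limma, adjusted p = 0.0705). Marker gates, weighting by cell number, quantile normalization and a single progenitor class each made Nrp1 a call, with the same sign. In the other 17 of 21 alternatives it stayed uncalled.

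Other genes detected in fewer interneuron-like than excitatory neuron-like cells included Sema3c (4 of 26 against 78 of 158), Ephb1 (2 of 26 against 75 of 158), Unc5d (2 of 26 against 60 of 158) and Epha4 (5 of 26 against 91 of 158). The smallest limma adjusted p among these 4 was 0.428, that of Sema3c. Interneuron-like cells also had fewer genes above the floor (median 3367 against 4033), and the part of this in their lower detection was not tested. Epha5 lay the other way, with a log2 difference of 0.64 ± 0.59 (limma, adjusted p = 0.991).

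Radial glia-like cells against interneuron-like cells gave 1 call among the 48 (2.08%), against 7.0% of all genes, 5.52% higher and 1.48% lower. At an unadjusted p below 0.05 in limma there were 6 of 48 (12.5%), against 2461 of the 10679 genes. The called gene was Unc50, which is not a guidance receptor. It was detected in 18 of 19 radial glia-like cells (means 202 and 302 TPM) and in 17 of 26 interneuron-like cells (means 141 and 70.3 TPM), a log2 difference of 2.88 ± 0.75 (limma, adjusted p = 0.0436). The call was lost without the interneuron-like cells of pool 2 (adjusted p = 0.213), without the radial glia-like cells of pool 1 (0.0552) or without those of pool 2 (0.204). Among guidance receptors the farthest from 0 was Epha5, at -1.14 ± 0.59 (limma, adjusted p = 0.278).

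By share of cells, intermediate progenitor-like cells lay between radial glia-like cells and the excitatory class for Nrp1, Plxna4 and Efna3, but neither of their comparisons gave a call. Against radial glia-like cells 0 of 48 genes were called, with 1.02% of all genes called. At an unadjusted p below 0.05 in limma there were 7 of 48 (14.6%), against 1597 of the 10679 genes. Epha4, a receptor of both ephrin classes, was detected in 15 of 17 intermediate progenitor-like cells (88.2%, 63.6 to 98.5%), with means of 36.4 and 66.4 TPM. Radial glia-like cells had it in 8 of 19 (42.1%, 20.2 to 66.5%), with means of 24.3 and 11.1 TPM, a log2 difference of -1.54 ± 0.56 (limma, adjusted p = 0.236). Dcc, the attractive netrin receptor, was detected in 8 of 17 against 3 of 19 cells (-1.11 ± 0.39, limma adjusted p = 0.218), and Unc5d in 9 of 17 against 1 of 19 (-1.09 ± 0.34, limma adjusted p = 0.167).

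Against excitatory neuron-like cells, intermediate progenitor-like cells again gave 0 calls of 48, with 0.0749% of all genes called. At an unadjusted p below 0.05 in limma there were 6 of 48 (12.5%), against 12.8% of all genes. Nrp1 had the largest difference. It was detected in 10 of 17 intermediate progenitor-like cells (58.8%, 32.9 to 81.6%), with means of 75.6 and 22.9 TPM, and differed by -1.79 ± 0.59 (limma, adjusted p = 0.255). Its share of cells was 31.6% in radial glia-like cells, 58.8% in intermediate progenitor-like cells and 84.2% in the excitatory class. Plxna4 had the same order, with 21.1%, 47.1% and 74.7% of cells. No test of that order was made.

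Within the excitatory neuron-like class, 3 clusters differed in which guidance genes were detected. Cluster 7 (63 cells) was led by Nell2 and Ntm, cluster 8 (58 cells) by Cck, Dab1 and Gap43, and cluster 9 (37 cells) by Pcp4, Pdzrn3, Sema3c and Lmo1. Globin genes were also among the 10 genes that led cluster 9, and the globin Hbb-bs was itself a marker used for clustering. Of the excitatory markers, 1 was among those 10 genes. The part of blood transcripts in forming this cluster was not tested. Since these clusters were singled out after their values were seen, their differences are described with no test.

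Sema3c was detected in 34 of 63, 17 of 58 and 27 of 37 cells of clusters 7, 8 and 9. Its means in the 2 pools were 83.8 and 41.9 TPM in cluster 7, 33.9 and 16.1 TPM in cluster 8, and 147 and 115.8 TPM in cluster 9. Both pools of cluster 9 lay above both pools of each other cluster. Unc5d followed the same order of detection, in 24 of 63, 12 of 58 and 24 of 37 cells. Its pool means were 24.1 and 3.31 TPM, 8.26 and 8.65 TPM, and 37.2 and 37.1 TPM, so cluster 9 was again highest in both pools while cluster 7 differed between them.

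Efna3 had the reverse order, with 27 of 63 and 29 of 58 cells in clusters 7 and 8 and 8 of 37 cells (21.6%, 9.83 to 38.2%) in cluster 9. Robo1, a Slit receptor, was detected in 32 of 63, 21 of 58 and 22 of 37 cells, with its highest mean of 29.9 TPM in cluster 9. Dcc was highest in cluster 7, at 37 of 63 cells with pool means of 14.6 and 27.97 TPM, against 5.60 and 6.75 TPM in cluster 8. Nrp1 varied little in detection, at 84.1%, 86.2% and 81.1% of cells, and Plxna4 at 84.1%, 68.97% and 67.6%. Leaving cluster 9 out of the excitatory class left the differences of radial glia-like cells at -2.88 for Nrp1, -2.38 for Plxna4 and -1.85 for Efna3, with the 3 calls kept.

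**Figure D4:**
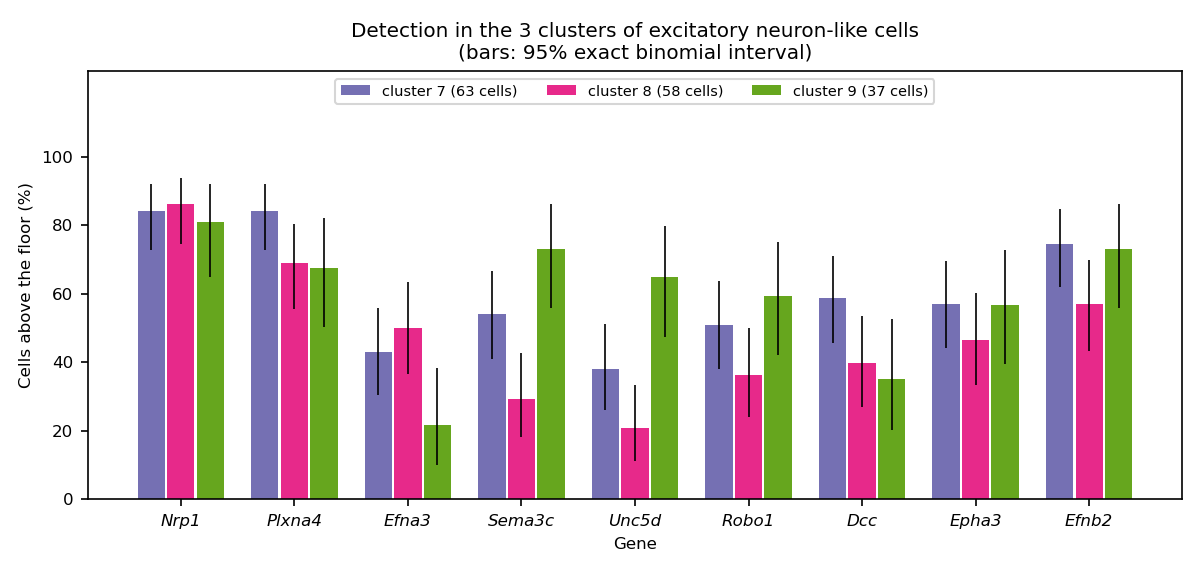
Share of cells above the floor for 9 guidance genes in the 3 clusters of excitatory neuron-like cells; bars are exact 95% binomial intervals, which cover counting error of cells and not the spread between pools. Sema3c (72.97%) and Unc5d (64.9%) are highest in cluster 9 and lowest in cluster 8 (29.3% and 20.7%), and Nrp1 is above 80% in each cluster.

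Textbook ligand and receptor pairs were set side by side by the share of ligand-bearing cells that also held the receptor. Of 16 pairs, 11 had both genes kept. Sema3a, the classical repulsive ligand of Nrp1, was detected in 45 cells, of which 30 (66.7%) held Nrp1, against 70.6% of all cells. Efna2 was detected in 50.2% of cells, of which 65 (58.6%) held Epha4, against 53.8% of all cells. Efnb2 was detected in 133 cells, of which 25 (18.8%) held Ephb2, against 15.8%.

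Some semaphorin pairs were farther apart over all cells. Sema6a was detected in 22 cells, of which 9 (40.9%) held its receptor Plxna4, against 63.8% of all cells. Ligand and receptor had different classes as their place of most frequent detection, radial glia-like for Sema6a and excitatory neuron-like for Plxna4. Within the excitatory class 6 of 8 Sema6a cells (75%) held Plxna4, against 74.7% of the class, and within the interneuron class 2 of 5 (40%), against 38.5%. Among radial glia-like cells it was 1 of 9 (11.1%), against 21.1%. Sema5a was detected in 26 cells, of which 11 (42.3%) held Plxna3, against 30.8% of all cells. Sema3c was detected in 96 cells, but Nrp2, one of its receptors, in 24, and 14 cells held both. In contrast to Nrp1, Nrp2 was detected in 18 of 158 cells of the excitatory class, 3 of 17 intermediate progenitor-like cells, 2 of 26 interneuron-like cells and no radial glia-like cell, with 16 of the 18 excitatory cells in pool 1. The shares rest on detection above the floor and have no test.

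Other guidance molecules and the proteins that carry the signal inside the cell were read from 2 lists. Both lists were chosen with earlier results of these data known. Among 23 tested co-receptors and other guidance molecules, radial glia-like cells against excitatory neuron-like cells gave 0 higher and 1 lower, Cntn2, an adhesion protein of axons (-2.12 ± 0.51, limma adjusted p = 0.0435). Cntn2 was detected in 6 of 19 and 132 of 158 cells. Over all genes 3.02% were called higher and 0.880% lower in that comparison. Against interneuron-like cells 2 of the 23 were lower, namely Chl1, an adhesion molecule of the L1 family (-2.99 ± 0.66, limma adjusted p = 0.0221), and Rgmb, a ligand of the netrin receptor relative neogenin (-2.11 ± 0.48, limma adjusted p = 0.0249). Of all genes, 1.48% were called lower in radial glia-like than in interneuron-like cells. The other 3 comparisons gave 0 calls in this list. The median of the 23 was -0.44 in the first comparison, beside -0.02 over all genes.

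Of 45 tested intracellular effectors, radial glia-like cells against excitatory neuron-like cells gave 1 higher and 5 lower, where 3.02% and 0.880% of all genes were called in those directions. The lower genes were Crmp1, Dpysl3 and Dpysl5, members of the collapsin response mediator family that relays semaphorin signals, Pak1, a kinase downstream of Rac, and Dcx, a microtubule protein of young neurons. Crmp1 was above the floor in every cell of all 4 classes, with a mean of 184 TPM in radial glia-like and 1018 TPM in excitatory neuron-like cells (-3.42 ± 0.39, limma adjusted p = 0.00349). The higher gene was Rhoa, the small GTPase through which repulsive cues act on the cytoskeleton, with a mean of 185 TPM against 50.3 TPM (3.16 ± 0.57, limma adjusted p = 0.0141). Crmp1, Pak1 and Dcx were also lower, and Rhoa higher, against interneuron-like cells. These are 3 and 1 of the 45, where 1.48% of all genes were called lower and 5.52% higher. Crmp1 was in addition lower in radial glia-like than in intermediate progenitor-like cells (-2.23 ± 0.39, limma adjusted p = 0.0284), where 1.02% of all genes were called. The remaining 2 comparisons gave 0 calls in this list.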

How the data were processed

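Single-cell libraries were made with the Fluidigm C1 platform, SMARTer v4 and Nextera XT, per the labels' protocols. The deposited values are TPM. The submitters' processing notes name Cufflinks 2.2.1, Bowtie2 2.2.6 and TopHat2 2.0.14 and the build mm10 as what the authors used. Each cell summed to 1000000 over 23244 features. No counts were used, so no count model was run.

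The guidance genes, marker lists and pathway lists were chosen with earlier results of these data known, among them differences of Nrp1 and Plxna4. Of 117 markers, 96 were above the floor and used. Standardized log2(TPM + 1) values of the markers were reduced to 10 principal components and cut into 10 clusters (Ward). A cluster was named for the class with the highest marker share if 3 or more markers of that class were detected in 50% of cells or more, a rule chosen once the clusters had been seen. Doublets were not called. Genes detected in fewer than 10 cells were left out. Class means per pool (at least 5 cells, or 3 in the alternatives with suffix A only and without Neurod6 cells) gave 8 profiles with 4 residual degrees of freedom, fitted with limma 3.58.1 in R 4.3.3 (eBayes with trend and robust variances, two-sided) and adjusted over 10679 genes. The 5 comparisons share classes and so are not independent.

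On simulated profiles of 10679 genes of radial glia-like cells and of excitatory neuron-like cells, 40 of 100 genes changed by 2 on the log2 scale and 84 of 100 changed by 4 were recovered, with 4 false calls. Classes of a pool came from the same 8 neocortices. Their deviations from the class means correlated at 0.0038 to 0.0464 between classes, and a fit with the pool as a block was an alternative.

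Genes given with values were those called, the 2 highest of each family and the farthest from 0 in each comparison without being called. Those of 16 textbook pairs with both genes kept were given as well. Other members, Unc5d and Epha3 among them, and the excitatory clusters were chosen after their values were seen. Intervals for shares of cells are exact (Clopper-Pearson, 95%) and cover counting error only. Gene positions are from GENCODE M21 (GRCm38, the build of mm10). Sequences are from RefSeq GRCm38.p6.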

Additional observations from a re-analysis of the deposited data

How the results depend on the processing

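Of the guidance genes called lower in the radial glia-like class than in the excitatory class, Nrp1 stayed called in 15 of 22 alternatives (log2 difference -4.17 to -1.20), Plxna4 in 14 (-3.01 to -1.11) and Efna3 in 9 (-2.98 to -0.70), all with the same sign. The count of called genes in that comparison, 3 in the report, was 0 with 8 clusters, with the log2 of the mean TPM, with marker gates and with cells of name suffix A only, and 5 without radial glia-like cells with Neurod6 at 100 TPM or more. Over all genes the calls were 417 in the report and 287, 214, 45, 13 and 511 in those settings, so the count over all genes also fell where the guidance count fell to 0. Leaving out one pool of one compared class gave 0 to 1 guidance genes and 1 to 320 genes in all, with the class left at 1 profile assumed to vary like the others. Suffix A and B are parts of the cell names whose meaning the labels do not state. The fit with suffix A only had 3 interneuron-like and 4 intermediate progenitor-like cells in pool 1. Radial glia-like cells against interneuron-like cells, 1 in the report, gave 0 with cells of at least 3000 genes, without trend and robust variances, with log2(TPM + 10), marker gates, no filter, profiles weighted by cells, quantile normalization and suffix A only, with 704, 773, 618, 547, 521, 580, 836 and 146 calls over all genes against 748 in the report. It gave 2 with clusters from variable genes (Plxna1 and Unc50), with the log2 of the mean (Efna1 and Ephb6) and without the cells with Neurod6 (Sema6c and Unc50), with 1271, 552 and 742 calls over all genes, and 0 to 1 without one pool of one class. Interneuron-like against excitatory neuron-like cells, 0 in the report, gave 1 (Nrp1) with marker gates, weights, quantile normalization and joined progenitors, with 96, 193, 42 and 60 calls over all genes against 34. The 2 comparisons with intermediate progenitor-like cells gave 0 in every alternative run. With variable-gene clusters and marker gates no such class formed, and those fits were not run. With the pool as a replicate block the counts were 2, 1 and 0 in the first 3 comparisons and 0 in the other 2, and the block changed no call but that of Efna3. The differences of radial glia-like from intermediate progenitor-like cells changed sign for Efna1 (0.60 in the report, -0.0278 with suffix A only) and for Unc5d (-1.09 in the report, 0.0351 with 8 clusters). Where a count changed because fewer cells or profiles were fitted, that is part of the setting; otherwise the cause was not tested. Requiring 3000 genes per cell and leaving out cluster 9 were chosen after seeing the data. Without read numbers, a gene at the floor cannot be told from one expressed below it.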
